A study of Homo sapiens with 4 samples.

Results

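The genes of MHC class I antigen presentation were read in 4 libraries of H9 human embryonic stem cells (hESCs), an established cell line. The 9 genes were chosen by name from the 60671 rows of the expression table: the heavy chains HLA-B, HLA-C and HLA-E, the light chain B2M, the peptide transporter subunits TAP1 and TAP2, the loading chaperone TAPBP, the peptidase ERAP1 and the transactivator NLRC5. Each name stood in 1 row. Both groups held 2 libraries of polyadenylated RNA from H9 cells grown in mTeSR on Matrigel. The control group is labelled as control H9. For its RNA-seq the study compares the re-expressing cells with mock controls, which took an empty CRISPR/Cas9 vector. Elsewhere it uses control for plain H9 cells, so which of these the control libraries are is not settled here. The study picked 2 mock clones, and whether the control libraries came from separate clones is not given in the sources used here. The other group, KO+OE, carried an edited CFIm25 gene and 3Flag-CFIm25 delivered by lentivirus under an EF1 promoter. The edited line is a single clone, described by the study as making a reduced amount of a shortened CFIm25, and the labels name the edit a KO in one place and a KD in another. No source used here says that the 2 replicates of a group came from separate cultures, so every p measures the spread between libraries only, which may be technical. Edited cells without re-expression were not analysed here, so the comparison is of the re-expressing line with control cells.

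MHC class I molecules show fragments of a cell's own proteins to CD8+ T cells. Peptides cut by the proteasome are carried into the endoplasmic reticulum by the TAP1/TAP2 transporter, trimmed there by ERAP1, and loaded with the help of tapasin, the product of TAPBP, onto a heavy chain paired with B2M. NLRC5 acts in the nucleus on the promoters of these genes together with the RFX, CREB and NF-Y factors, and interferon gamma raises most of the pathway. Human embryonic stem cells are known for carrying little class I at the surface until they differentiate or meet interferon.

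In H9 cells the heavy chains and B2M were abundant transcripts, TAP1 and TAPBP stood at an intermediate level, and NLRC5, TAP2 and ERAP1 were low. No gene of the 9 passed the test between KO+OE and control. Differences were taken on a log2 scale of TPM + 1 (TPM is a share of transcripts), which understates changes of low genes. On that scale the 95% interval lay within 2-fold in both directions for 8 of 9 genes. This share was like that of all genes tested (11409 of 12319). The exception was TAP2, whose KO+OE replicates stood far apart. HLA-B in control and TAP2 in KO+OE were the genes whose replicates lay farthest apart for their level. In bulk RNA, a change in the share of cells that express a gene cannot be told apart from a change in RNA per cell.

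The genes lie on 4 chromosomes (RefSeq, GRCh38.p14). Of the heavy chains, HLA-B covers chr6:31353875-31357179, HLA-C covers chr6:31268749-31272092 and HLA-E covers chr6:30489509-30494194. TAP1 (chr6:32845209-32853704), TAP2 (chr6:32821831-32838739) and TAPBP (chr6:33299694-33314078) lie in the same region of chromosome 6, the major histocompatibility complex. B2M is at chr15:44711517-44718145, ERAP1 at chr5:96760813-96935854 and NLRC5 at chr16:56989557-57083520.

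The promoters of HLA-B, HLA-C, B2M, TAP1 and TAPBP are shown because each carries some sequence element of the kinds known to control class I genes. No element is common to all of them. The windows of TAP2 and ERAP1 also hold matches and are not printed. Each run is the 250 bases before the RefSeq transcript start in GRCh38.p14, read 5′ to 3′ on the strand of the gene. Capitals mark 3 sets of letters searched on both strands: TGACG, the core of the X2-type site bound by CREB and ATF factors, CCAAT, the Y-type box bound by NF-Y, and GAAA repeated after a gap of any 2 bases, the core of interferon-response elements. On the opposite strand the Y-type box reads ATTGG. Matches of the last motif may overlap each other. The motifs were picked with these sequences in view.
HLA-B (chr6:31357180-31357429, minus strand): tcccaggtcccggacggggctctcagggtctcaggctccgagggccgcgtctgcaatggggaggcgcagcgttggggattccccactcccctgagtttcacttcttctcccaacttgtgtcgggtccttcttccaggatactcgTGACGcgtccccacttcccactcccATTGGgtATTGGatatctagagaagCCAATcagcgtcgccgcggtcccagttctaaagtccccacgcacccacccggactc
HLA-C (chr6:31272093-31272342, minus strand): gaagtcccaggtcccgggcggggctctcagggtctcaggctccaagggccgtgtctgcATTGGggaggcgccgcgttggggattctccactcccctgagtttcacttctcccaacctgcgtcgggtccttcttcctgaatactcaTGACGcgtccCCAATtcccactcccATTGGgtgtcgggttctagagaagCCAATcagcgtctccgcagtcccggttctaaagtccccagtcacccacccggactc
B2M (chr15:44711267-44711516, plus strand): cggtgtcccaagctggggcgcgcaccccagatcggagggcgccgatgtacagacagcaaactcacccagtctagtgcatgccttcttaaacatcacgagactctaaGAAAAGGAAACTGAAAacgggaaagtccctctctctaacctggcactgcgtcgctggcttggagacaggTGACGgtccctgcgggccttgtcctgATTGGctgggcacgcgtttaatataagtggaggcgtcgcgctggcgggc
TAP1 (chr6:32853705-32853954, minus strand): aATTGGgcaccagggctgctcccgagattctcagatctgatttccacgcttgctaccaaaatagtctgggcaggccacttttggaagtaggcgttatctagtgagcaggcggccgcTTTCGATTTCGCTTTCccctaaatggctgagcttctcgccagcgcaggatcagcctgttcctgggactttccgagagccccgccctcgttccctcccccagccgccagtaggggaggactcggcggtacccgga
TAPBP (chr6:33314079-33314328, minus strand): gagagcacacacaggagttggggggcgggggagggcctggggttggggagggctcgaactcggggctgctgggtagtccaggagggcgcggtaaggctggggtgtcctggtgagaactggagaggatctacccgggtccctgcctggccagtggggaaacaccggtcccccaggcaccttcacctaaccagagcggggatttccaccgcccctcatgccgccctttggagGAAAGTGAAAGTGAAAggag

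HLA-B, HLA-C and B2M share an arrangement in which TGACG is followed on the same strand by ATTGG. The distance from the first base of one to the first base of the other is 25 bases in HLA-B, 25 bases in HLA-C and 26 bases in B2M. This order within 30 bases was found in 142 of the 35116 promoters of the same length, or 0.404%, while TGACG alone was found in 21.2% and CCAAT in 32.01%. It was absent from the windows of TAP1, TAP2, TAPBP and ERAP1. Exact matches to the interferon-type repeat were found in B2M, TAP1, TAP2 and TAPBP, against 3.02% of all promoters. HLA-B, HLA-C and ERAP1 had no exact match. Only the exact letters were searched, so interferon-response elements that differ from them were not counted, and their absence was not tested. TAP1 and ERAP1 each have 2 annotated starts, and the other TAP1 window (chr6:32852762-32853011) holds no interferon-type repeat. In the TAP1 window shown, the repeat is read on the opposite strand and begins at position -134 from the start, and in TAPBP it begins at position -20. The HLA-B and HLA-C windows are near copies, with 226 of 254 aligned columns identical (89.0%), whereas HLA-B and B2M share 49.5% of columns, and HLA-C and B2M 49.2%. Promoters were found for 7 of the 9 genes, and those of HLA-E and NLRC5 are named only. A match describes letters in the window and is not evidence of binding, which these libraries do not measure.

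**Figure D1:**
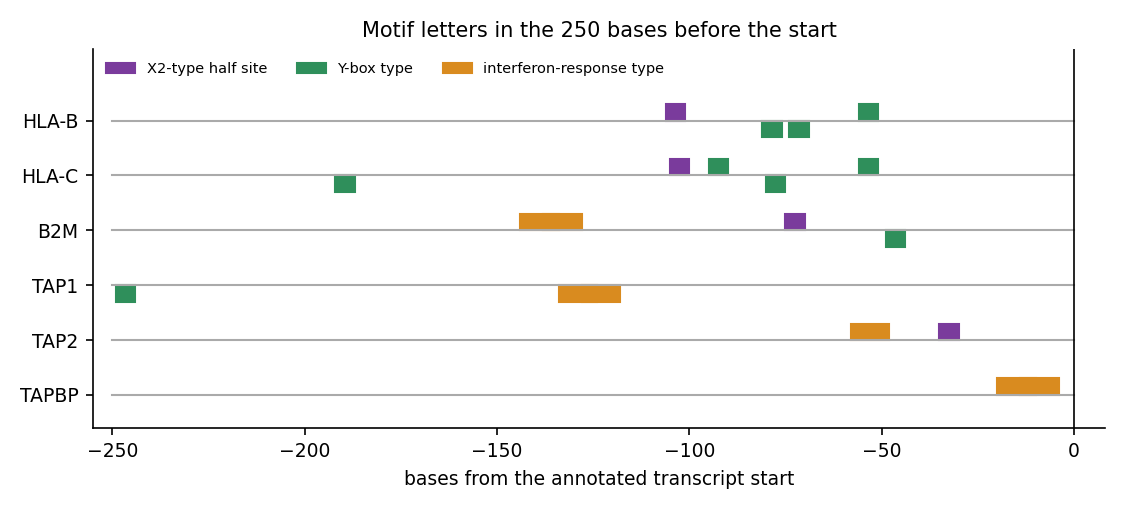
Motif matches in the 250 bases before the annotated start of 6 class I pathway genes, with distance from the start in bases on the horizontal axis and boxes above the line for the gene's strand and below it for the opposite strand. The purple and green pair of HLA-B, HLA-C and B2M lies 25 or 26 bases apart, and the orange interferon-type repeats appear in B2M, TAP1, TAP2 and TAPBP.

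The values were read as TPM, a share of transcripts, from their decimals and nearly equal sums, while the header names no unit. In TPM the reads of each gene are divided by transcript length and scaled to a common library total. On that reading, levels can be set side by side between genes. The columns summed to between 986853 and 987078. No counts were used here, and sequencing depth is unknown. Precision comes from the replicates, with the spread of each gene drawn by limma toward that of genes of like level. Transcripts of the mitochondrial genome made up 21.0% to 21.1% of a control library and 21.6% to 22.1% of a KO+OE library. NUDT21, the gene of CFIm25, stood at 152 to 162 TPM in all 4 libraries (limma, log2 fold change 0.03, adjusted p = 0.980), which does not separate the edited copy from the re-expressed one. The hESC markers were present throughout, with POU5F1 at 2164 to 2212 TPM, LIN28A at 517 to 528 TPM, NANOG at 15.9 to 19.9 TPM and SOX2 at 18.2 to 19.4 TPM. Among markers of other cell types, the leukocyte gene PTPRC was listed at 0 in every library. It was the only 1 of the 7 leukocyte genes at 0 throughout, and 2 of the 7 averaged at least 1 TPM. The 5 endothelial genes summed to 9.68 to 10.3 TPM, led by KDR. The 7 trophoblast genes summed to 0.34 to 0.54 TPM, led by ERVW-1 at no more than 0.43 TPM and with CGA at 0. The 7 fibroblast genes summed to 79.6 to 83.7 TPM, led by COL1A1 at 53.9 to 55.6 TPM, with LUM at 0. Their part in the class I levels was not tested.

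HLA-C was the most abundant of the 9 genes. It encodes a classical heavy chain that presents peptides to T cells and is read by inhibitory receptors of natural killer cells. Its level was 435 and 425 TPM in the control libraries and 427 and 438 TPM in the KO+OE libraries. The groups overlapped, and the replicates of each group lay farther apart than the group means. Control averaged 430.1 ± 6.85 TPM and KO+OE averaged 433 ± 7.36 TPM (SD, n = 2 for these and all later means). The log2 fold change of TPM + 1 was 0.01 with a 95% interval of -0.07 to 0.09, and the adjusted p of limma over all genes tested was 0.990. HLA-C (ENSG00000204525) ranked 247th by mean level among the 12319 genes tested, above 97.995% of them.

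HLA-B, the other classical heavy chain of the 9 genes, was read at 181 and 222 TPM in control, against 232 and 229 TPM in KO+OE. Control replicate 1 was the low library, and the other 3 lay close to each other. The groups did not overlap, with means of 202 ± 29.5 TPM and 230.3 ± 2.06 TPM. KO+OE was higher by 0.20 on the log2 scale with an interval of -0.06 to 0.45, which spans 0.96-fold to 1.37-fold (limma, unadjusted p = 0.101, adjusted p = 0.931). The estimate depended on which control library was kept. Leaving out control replicate 1 gave 0.05 and leaving out control replicate 2 gave 0.35 (unadjusted p = 0.00176, adjusted p = 0.505), where the library left alone in its group is assumed to vary as the others do. The gap between the control replicates of HLA-B (ENSG00000234745) was 0.30 on the log2 scale, larger than that of 98.8% of 419 genes within 1.5-fold of its level, whose median gap was 0.04. Between the KO+OE replicates it was 0.02.

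The low HLA-B value of control replicate 1 had no counterpart in HLA-C, which was at its second highest there. The ratio of HLA-C to HLA-B was 2.41 in control replicate 1, and 1.91, 1.84 and 1.91 in control replicate 2 and KO+OE replicates 1 and 2. In the exact permutation test the ratio gave p = 0.667, and 2 libraries against 2 cannot give less than 0.333. The reads of these genes can be hard to assign, since the heavy chains resemble one another. Of the 50-base windows along the reference transcript, 2.56% in HLA-B, 6.76% in HLA-C and 6.16% in HLA-E recur exactly in transcripts of other genes, and of 100-base windows 0%, 0.277% and 0.612%. How the authors' counting treated such reads is not given in the sources used here, and its part in the HLA-B values was not tested.

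HLA-E (ENSG00000204592), a nonclassical heavy chain that presents leader peptides of other class I chains to natural killer cells, had the smallest difference between the groups of the 9 genes. Its values were 63.9 and 62.0 TPM in control and 62.8 and 63.2 TPM in KO+OE. The KO+OE libraries both fell between the control libraries, with means of 62.9 ± 1.35 TPM and 63.0 ± 0.226 TPM. Between the groups the log2 fold change was 0.00 with an interval of -0.11 to 0.12 (limma, adjusted p = 0.996). The summed level of HLA-B, HLA-C and HLA-E was 679.6 and 709.7 TPM in control and 722 and 729.9 TPM in KO+OE. Both KO+OE sums lay above both control sums, by 0.06 on the log2 scale, with p = 0.333 in the exact permutation test, the smallest this design allows. The sum covers these 3 genes only.

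B2M (ENSG00000166710) encodes beta-2 microglobulin, the light chain without which class I heavy chains do not reach the surface. It was read at 186 and 173 TPM in control and 186 and 185 TPM in KO+OE. Control replicate 2 was the low library and the other 3 lay close to each other, so the groups overlapped. The means were 179 ± 8.86 TPM and 186 ± 0.721 TPM, with a log2 fold change of 0.05, an interval of -0.07 to 0.17 and an adjusted p of 0.950 (limma). Set against the 3 heavy chains within each library, the ratio of B2M to their summed level was 0.273 and 0.244 in control and 0.258 and 0.254 in KO+OE. Both KO+OE ratios lay between the control ratios, and the exact permutation test gave p = 1. TPM counts RNA, so these ratios say nothing of the amounts of protein.

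**Figure D2:**
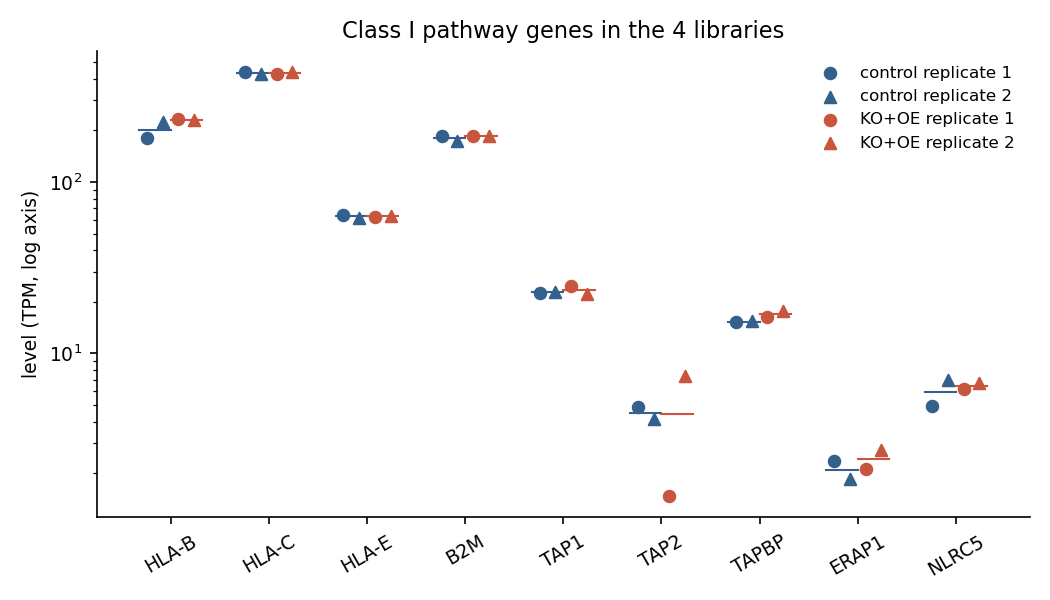
Level of each of the 9 class I pathway genes in TPM on a log axis, with a point per library (blue, control, and red, KO+OE) and a line at the mean of each group of 2. The points of most genes lie on top of each other, HLA-B has a single low control library at 181 TPM, and TAP2 has its lowest (1.47 TPM) and highest (7.34 TPM) values in the 2 KO+OE libraries.

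TAP1 and TAP2 encode the paired subunits of the peptide transporter of the endoplasmic reticulum, and their transcripts were far from equal. TAP1 (ENSG00000168394) was read at 22.5 and 22.9 TPM in control and 24.7 and 22.3 TPM in KO+OE. The groups overlapped, with means of 22.7 ± 0.262 TPM and 23.5 ± 1.67 TPM, a log2 fold change of 0.05 and an interval of -0.14 to 0.24 (limma, adjusted p = 0.980). In the gene models, TAP1 overlaps PSMB9 on the opposite strand, which was read at 7.67 to 12.4 TPM. Whether counting used strand is not given in the sources used here, so reads from the overlap cannot be told apart.

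TAP2 (ENSG00000204267) was the 1 gene of the 9 whose replicates disagreed by a large factor. It was read at 4.85 and 4.16 TPM in control, against 1.47 and 7.34 TPM in KO+OE. KO+OE replicate 1 was the lowest of the 4 libraries and KO+OE replicate 2 the highest, so the control values lay between them. The gap between the KO+OE replicates was 1.76 on the log2 scale, above that of 99.2% of 2359 genes of like level, whose median was 0.16, while the control gap was 0.18. The group means were nearly equal at 4.505 ± 0.488 TPM and 4.405 ± 4.15 TPM. On the log2 scale the estimate was -0.28 with an interval of -1.74 to 1.19, or 0.30-fold to 2.28-fold, and limma gave an adjusted p of 0.988. Without KO+OE replicate 1 the estimate was 0.60 (unadjusted p = 0.0318, adjusted p = 0.920) and without KO+OE replicate 2 it was -1.15 (unadjusted p = 0.00664, adjusted p = 0.917). The sign for TAP2 therefore rested on which KO+OE library was kept, and no difference between the groups could be read from it in either direction.

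TAP1 did not share this spread. The ratio of TAP1 to TAP2 was 4.64 and 5.50 in control and 16.8 and 3.04 in KO+OE (exact permutation p = 1). Part of TAP2 is also contained in a readthrough gene on the same strand that joins it to the neighbouring class II gene (ENSG00000250264), and 34.7% of the 100-base windows of the TAP2 reference transcript recur in it. That gene was read at 2.64 and 2.12 TPM in control and 3.04 and 2.68 TPM in KO+OE. Added together, TAP2 and the readthrough gene came to 7.49, 6.28, 4.51 and 10.02 TPM in the same order, so the KO+OE libraries were still the lowest and the highest. In KO+OE replicate 1 the readthrough gene was at its highest of the 4 libraries and TAP2 at its lowest.

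**Figure D3:**
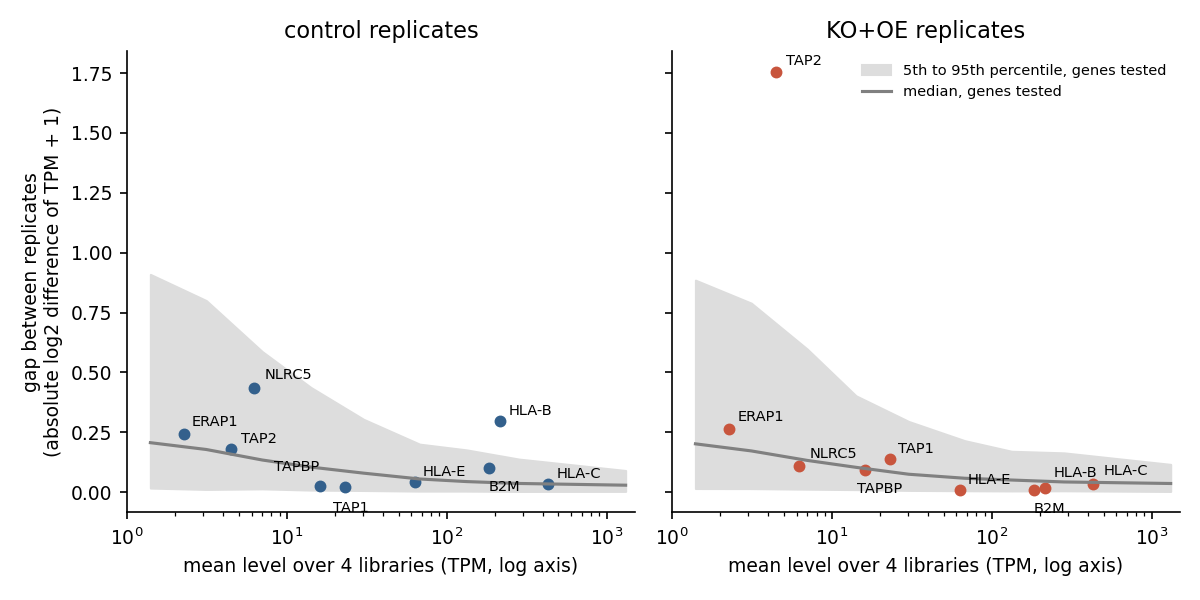
Absolute log2 difference of TPM + 1 between the 2 replicates of each group (vertical axis) against mean level in TPM (log axis), with the grey band covering the 5th to 95th percentile of the genes tested at each level and the grey line their median. HLA-B stands above the band in control (gap 0.30) and TAP2 far above it in KO+OE (gap 1.76), while the other genes lie within it.

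TAPBP (ENSG00000231925), which encodes tapasin and bridges TAP to the heavy chain, was the other gene whose groups did not overlap. It was read at 15.2 and 15.5 TPM in control and 16.4 and 17.6 TPM in KO+OE, with means of 15.3 ± 0.212 TPM and 17.0 ± 0.827 TPM. Both KO+OE libraries were the higher ones, by a log2 fold change of 0.14. The interval ran from -0.05 to 0.33 (limma, unadjusted p = 0.117, adjusted p = 0.932). ERAP1 (ENSG00000164307), the aminopeptidase that trims peptides to the length class I molecules hold, was at 2.36 and 1.84 TPM in control and 2.11 and 2.73 TPM in KO+OE. The groups overlapped, and the log2 fold change of 0.14 came with an interval of -0.33 to 0.61 (limma, adjusted p = 0.968). ERAP1 overlaps CAST on the opposite strand, itself read at 2.91 to 3.89 TPM.

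NLRC5 (ENSG00000140853) is the transactivator that binds class I promoters through the factors on the X and Y boxes. It was read at 4.94 and 7.04 TPM in control and 6.17 and 6.73 TPM in KO+OE. The KO+OE values lay between the control values, with means of 5.99 ± 1.48 TPM and 6.45 ± 0.396 TPM. KO+OE against control gave 0.11 on the log2 scale with an interval of -0.34 to 0.55 (limma, adjusted p = 0.980). As for HLA-B, control replicate 1 was the lowest library: without it the log2 fold change of NLRC5 was -0.11, and without control replicate 2 it was 0.33. B2M, HLA-C and HLA-E showed no low value in that library.

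In order of mean level, HLA-C came first, followed by HLA-B, B2M, HLA-E, TAP1, TAPBP, NLRC5, TAP2 and ERAP1. The mean of HLA-C was 1.997 times that of HLA-B, and every HLA-C value was above every HLA-B value. The HLA alleles of H9 were not compared with the reference genome, so the part of read alignment in this ratio was not tested. HLA-B and B2M were not separated, since HLA-B was higher in only 3 of 4 libraries and their ranges overlapped. B2M stood 2.90 times above HLA-E, HLA-E 2.72 times above TAP1, TAP1 1.43 times above TAPBP and TAPBP 2.59 times above NLRC5, each pair with no overlap over the 4 libraries. TAP2 was not separated from either neighbour: NLRC5 was above TAP2 in 3 of 4 libraries, and TAP2 above ERAP1 in 3 of 4. By rank among the genes tested, the heavy chains and B2M stood above 86.8% to 97.995% of genes, TAP1 and TAPBP above 72.0% and 65.1%, and NLRC5, TAP2 and ERAP1 above 44.9%, 37.4% and 20.4%. The 3 lowest genes also had the longest reference transcripts, 6781 bases for NLRC5, 5643 for TAP2 and 4841 for ERAP1, and TPM divides by transcript length, whose part in the order was not tested.

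Across the 9 genes, all of which passed the filter of a mean of at least 1 TPM, 0 passed an adjusted p of 0.05 in limma, against 0.00812% of all genes tested (1 of 12319). At an unadjusted p of 0.05 the count was again 0, against 5.33% of all genes (656 of 12319), and the lowest p was 0.101, for HLA-B. The fitted log2 fold change was above 0 for 8 of 9 genes, against 5609 of all 12319, and its median was 0.05, beside -0.01 over all genes tested. Groups without overlap were found for HLA-B and TAPBP, both with KO+OE higher, where 14.5% of all genes had KO+OE higher and 19.6% had it lower. Together the 9 genes summed to 915 and 934 TPM in control and 959 and 972 TPM in KO+OE, or 0.0927% to 0.0985% of a library. The genes are not replicates of each other, so no p is given for these counts or for the median.

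**Figure D4:**
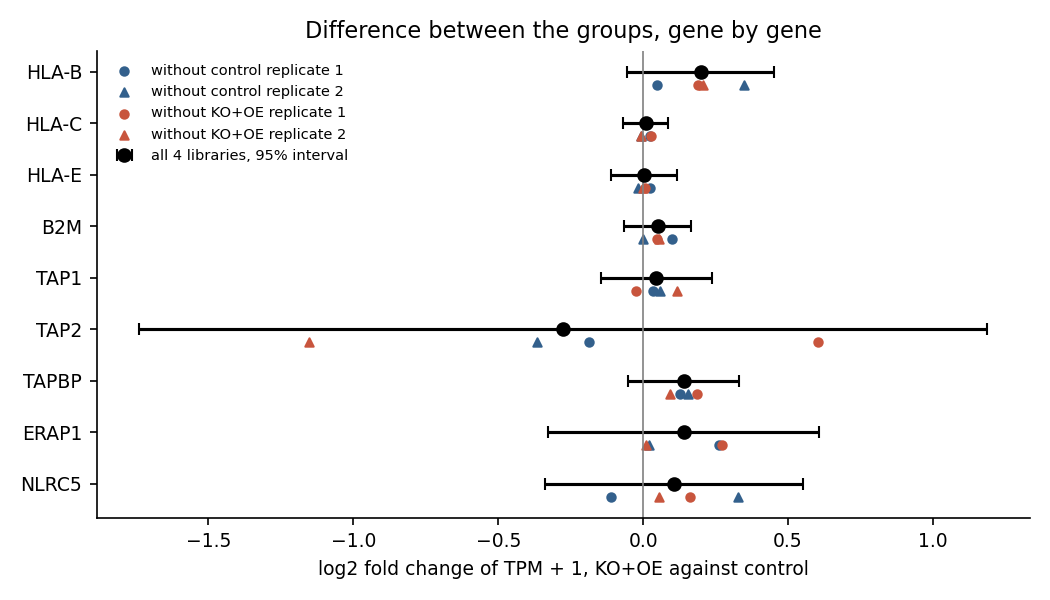
Log2 fold change of TPM + 1 in KO+OE against control for each of the 9 genes, with black points and bars for the estimate and 95% interval of limma over all 4 libraries, and coloured points for the estimate with 1 library left out. Every interval spans 0, that of TAP2 runs from -1.74 to 1.19, and the 2 red points of TAP2 lie on opposite sides of 0.

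The genes that work around the members were followed through 7 lists of 59 genes, of which 46 passed the filter. None of the 46 passed an adjusted p of 0.05 (lowest 0.928), and 3 passed an unadjusted p of 0.05, 1 with KO+OE higher and 2 with KO+OE lower, a share near the 5.33% of all genes tested (279 higher and 377 lower). The log2 fold change was above 0 for 21 and below 0 for 25, with a median of -0.01, the same to 2 decimals as that of all genes tested. For 45 of the 46 the interval of TPM + 1 stayed within 2-fold, as it did for 11409 of all 12319 genes tested. For genes near 1 TPM, such an interval does not hold the change of TPM itself within 2-fold.

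Of the genes for peptide loading and folding, 6 of 9 were tested, 4 with a positive and 2 with a negative difference, and a median of 0.01. CALR, the chaperone calreticulin of the loading complex, was more abundant than any of the 9 genes, at 479 and 483 TPM in control and 486.5 and 489.9 TPM in KO+OE (log2 fold change 0.02). PDIA3, the thiol oxidoreductase that partners tapasin, was at 202 to 213 TPM in the 4 libraries (log2 fold change 0.01). SPPL3, an intramembrane protease that alters the glycolipids around class I molecules, was at 20.1 and 23.6 TPM in control and 25.5 and 27.2 TPM in KO+OE. Here the log2 fold change was 0.26 with an interval of 0.02 to 0.51 (limma, unadjusted p = 0.0402, adjusted p = 0.928). ERAP2, the second trimming peptidase, was listed at 0 in all 4 libraries.

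Among other class I and class I-like chains, 5 of 9 were tested, 2 with a positive and 3 with a negative difference, and a median of -0.02. FCGRT, the heavy chain of the neonatal Fc receptor, which pairs with B2M but presents no peptide, was at 32 and 31.5 TPM in control and 26.7 and 26.5 TPM in KO+OE. The libraries of each group lay close together, and both KO+OE values were the lower ones. The log2 fold change of FCGRT was -0.25 with an interval of -0.39 to -0.10 (limma, unadjusted p = 0.00652, adjusted p = 0.928). MICA, a stress-induced ligand of the NKG2D receptor, ranged from 22.1 to 23.4 TPM (log2 fold change -0.02).

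All 6 genes of the immunoproteasome and its activator were tested, 4 with a positive and 2 with a negative difference, and a median of 0.00. The activator subunits PSME2 and PSME1 were the most abundant, at 128 to 135 TPM and 108 to 116 TPM (both with a log2 fold change of 0.00). PSMB9, an interferon-inducible catalytic subunit that lies head to head with TAP1, was at 12.4 and 12.4 TPM in control and 10.4 and 7.67 TPM in KO+OE. For PSMB9 the log2 fold change was -0.44 with an interval of -0.81 to -0.06 (limma, unadjusted p = 0.0311, adjusted p = 0.928), whereas TAP1 on the other strand had 0.05. The 3 constitutive subunits that the immunoproteasome replaces had 1 positive and 2 negative differences, none past an unadjusted p of 0.05, with a median of -0.03, and PSMB6 and PSMB5 had means of 381 and 346 TPM over the 4 libraries.

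Of the factors that assemble on the class I promoter, 6 of 8 were tested, 2 with a positive and 4 with a negative difference, none past an unadjusted p of 0.05, and the median was -0.04. RFXANK, a subunit of the RFX complex, was at 54.8 and 55.0 TPM in control and 52.6 and 47.5 TPM in KO+OE (log2 fold change -0.13, limma, unadjusted p = 0.0943, adjusted p = 0.931). NFYC, a subunit of NF-Y, had a mean of 26.4 TPM and a log2 fold change of -0.01. Of the genes for interferon signalling and the IRF and NF-kappaB factors, 14 of 16 were tested, 5 with a positive and 9 with a negative difference, none past an unadjusted p of 0.05, with a median of -0.10. TYK2, a kinase of interferon receptors, and IFNGR2, a chain of the interferon gamma receptor, were the most abundant, with log2 fold changes of 0.03 and 0.09. At the upper end of the range was IRF1, an interferon-induced activator of class I genes, at 2.73 and 3.58 TPM in control and 4.74 and 4.16 TPM in KO+OE (log2 fold change 0.40, limma, unadjusted p = 0.0550, adjusted p = 0.931). At the lower end was IFNGR1, the other chain of the interferon gamma receptor, at 1.35 and 1.33 TPM in control and 0.59 and 0.84 TPM in KO+OE (log2 fold change -0.45, limma, unadjusted p = 0.0641, adjusted p = 0.931). In both genes the groups did not overlap. Of the 14 tested genes, 3 had KO+OE higher without overlap and 3 had it lower, beside 14.5% and 19.6% of all genes tested. IFNGR1, with a mean of 1.03 TPM, stood just above the filter.

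**Figure D5:**
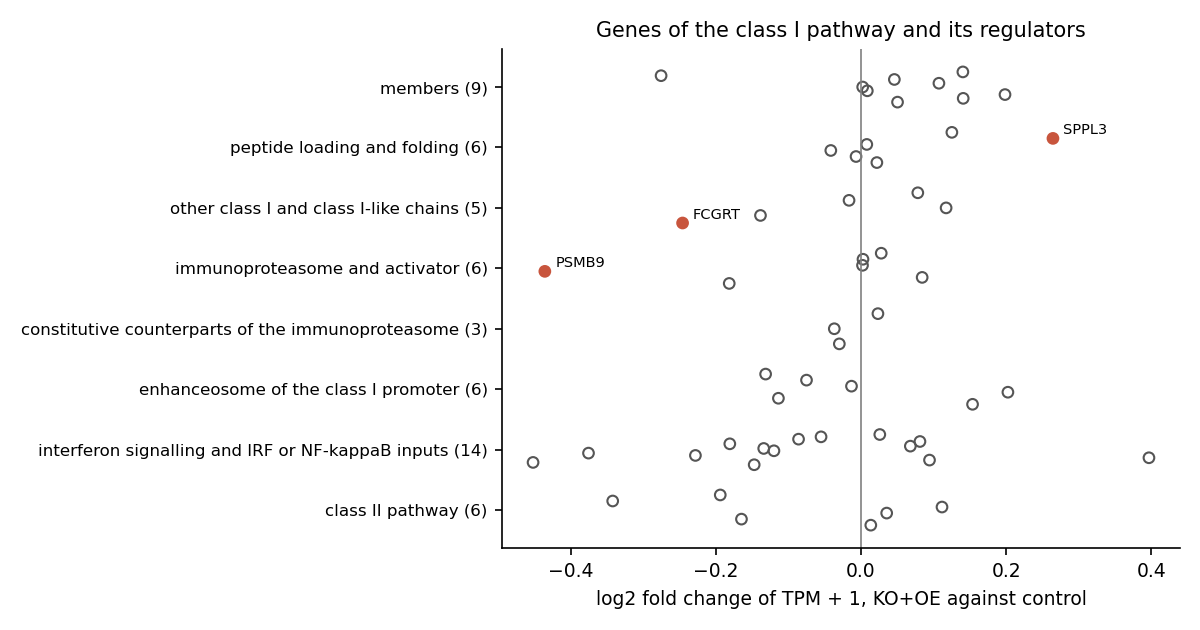
Log2 fold change of TPM + 1 in KO+OE against control for the 9 class I genes and for the tested genes of 7 lists of the pathway and its regulators (number tested in brackets), with a circle per gene and filled circles for an unadjusted limma p under 0.05. SPPL3, FCGRT and PSMB9 are the 3 filled circles, and no gene shown passed an adjusted p of 0.05.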

How the data were processed

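Per the labels, polyadenylated RNA was enriched with oligo(dT) beads. The submitters' processing notes name HISAT2, featureCounts, Subread, DESeq2 and hg38, without versions or settings. The authors deposited 1 value per gene and library, read here as TPM (reads over transcript length, scaled to a common total) because all columns have decimals and nearly equal sums, while the header names no unit. Depth is unknown, so no counting error or count test was computed. There were 0 other columns of values.

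Values were put on a log2(TPM + 1) scale, which understates changes of low genes. All 12319 genes averaging 1 TPM or more were fitted with limma 3.58.1 (trend, two-sided) in R 4.3.3, with Benjamini-Hochberg adjustment over all of them, and the step was tested on simulated data. Ratios and sums were compared by exact permutation, two-sided. The labels do not say that a replicate number marks a shared batch, and the fit had no block. The deviations of same-numbered libraries had a correlation of -0.05, which with so few libraries can neither show nor exclude pairing. Promoters were read from RefSeq (GRCh38.p14), and transcript lengths, overlaps and recurring windows from GENCODE release 44 on GRCh37. Python 3.11.15, pandas 2.3.3, numpy 2.4.6, scipy 1.17.1 and matplotlib 3.10.9 were used.

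The 9 genes and all lists were chosen with earlier results of these data known. Named besides the 9 genes are NUDT21, 4 hESC markers, the gene of highest mean of each other marker list (1 is not reported here, nor is the sum of its list) and, of each pathway list, the 2 of highest mean and any at an unadjusted p under 0.05. ERAP2, PSMB10, IRF1, IFNGR1, HLA-DRA, HLA-DPA1, CIITA, PTPRC, CGA, LUM and CAST were named after their values were seen. Alternatives were pseudocounts of 0.1 and 5, no filter, a mean of at least 5 TPM, rescaling by median ratios or without mitochondrial genes, quantile normalization, no mean-dependent prior, a replicate block, and leaving out each library.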

Additional observations from a re-analysis of the deposited data

How the results depend on the processing

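Of 115 alternative estimates of the 9 genes, 7 changed sign, all on leaving out 1 library, and 0 genes passed an adjusted p of 0.05 under any alternative (lowest 0.505, HLA-B without control replicate 2). With 1 library left out, the lone library of its group is assumed to vary as the others do. The log2 fold change then ranged from -0.0087 to 0.026 for HLA-C, from -0.019 to 0.024 for HLA-E, from -0.024 to 0.12 for TAP1, from -1.15 to 0.60 for TAP2 and from -0.11 to 0.33 for NLRC5. HLA-B (0.050 to 0.35), B2M (0.00023 to 0.10), TAPBP (0.093 to 0.19) and ERAP1 (0.0097 to 0.27) kept their sign, with B2M nearly at 0 without control replicate 2 and ERAP1 without KO+OE replicate 2. The number of the 9 genes past an unadjusted p of 0.05 ranged from 0 to 1: it was 1 without control replicate 2 (HLA-B) and without KO+OE replicate 1 or 2 (TAP2). Their median log2 fold change ranged from 0.020 (without control replicate 2) to 0.16 (without KO+OE replicate 1). For the ratio of B2M to the 3 heavy chains, the log2 difference of KO+OE from control ranged from -0.095 to 0.068. These were the values without control replicate 2 and without control replicate 1. Pseudocounts, filters, the prior and rescaling changed none of these calls or signs, and rescaling put the median at 0.06. Sizes moved by over 1.5 times for TAP2 (-0.43 with a pseudocount of 0.1 and -0.09 with 5), ERAP1 (0.06 with 5) and NLRC5 (0.07 with 5). Near 0, so did those of HLA-C (up to 0.035 on quantile normalization) and HLA-E (up to 0.016 on rescaling). The filter at 5 TPM left out TAP2 and ERAP1. With the replicate block the count at an unadjusted p of 0.05 was 0 and the median 0.05, and no call on the 9 genes changed. No name occurred in more than 1 row, so the choice between duplicate rows had no alternative to run. With TPM alone, differences within the spread of 2 libraries could not be resolved.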

Other observations

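The class II pathway, which presents peptides from outside the cell and is normally confined to antigen-presenting cells, was represented unevenly in these stem cells. Of its 8 genes, 6 were tested, 3 with a positive and 3 with a negative log2 fold change, none past an unadjusted p of 0.05 in limma (lowest, HLA-DOA), and the median was -0.08. CD74, the invariant chain that guides class II molecules, was at 116 and 107 TPM in control and 110.5 and 114 TPM in KO+OE, below HLA-B and B2M and above HLA-E in every library (log2 fold change 0.01). HLA-DOA, a chain of a modulator of class II loading, was at 16.3 and 17.7 TPM in control and 18.7 and 18.2 TPM in KO+OE (log2 fold change 0.11, limma, unadjusted p = 0.195, adjusted p = 0.942). The peptide-presenting chain HLA-DRA was at 1.64 and 1.52 TPM in control and 0.79 and 1.84 TPM in KO+OE. Another such chain, HLA-DPA1, was higher, at 3.41 and 5.70 TPM in control and 2.87 and 3.75 TPM in KO+OE. CIITA, the master regulator of class II genes, was at 0.15 to 0.24 TPM in the 4 libraries, below the filter for testing, whereas its class I relative NLRC5 was at 4.94 to 7.04 TPM.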
